A study of Mus musculus with 6 samples.

Results

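The EGF receptor (ErbB) family genes described here are 3 receptors, Egfr, Erbb2 and Erbb3, and 6 ligands, Hbegf, Tgfa, Btc, Areg, Ereg and Epgn. They were chosen by gene symbol from the deposited table, in which each of the 9 symbols matched 1 of 22274 genes. The libraries came from mouse kidney cells labelled as primary renal fibroblasts, kept for 48 h in TGF-β at 5 ng/ml, the cytokine used to induce the myofibroblast state in culture. In 3 libraries the cells carried siRNA against Prune2, labelled as a knockdown, and in 3 they carried a negative control siRNA and were labelled wild type. Both groups thus carry TGF-β, and its own effect cannot be read from these values. Nothing in the labels says whether replicates were separate isolations or cultures, and p-values reflect only how far these libraries differ, possibly for technical reasons. The siRNA sequences and the age of the mice are not known here.

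ErbB receptors are membrane tyrosine kinases that pair with each other when a ligand binds. Egfr binds all of the ligands described here, Erbb2 has no known ligand of its own and serves as a partner, and Erbb3 binds neuregulins and has an impaired kinase. The ligands are made as membrane-bound precursors and are released by metalloproteases, Adam17 chief among them. Downstream, the RAS to ERK cascade switches on early growth genes and also its own inhibitors. In kidney, Egfr signalling in tubular epithelium is known to aid repair after acute injury, and when it persists it is known to promote fibrosis.

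Library totals ran from 20075265 to 23234797 counts. Markers of several kidney cell types were present. Epcam, an epithelial adhesion protein, had mean deposited FPKM (fragment counts scaled for transcript length and for depth) of 248 with Prune2 siRNA and 244 with control siRNA, and Krt8, a keratin of simple epithelia, 1131 with Prune2 siRNA and 1232 with control siRNA. Among fibroblast markers, Col1a1 had mean FPKM of 34.4 with Prune2 siRNA and 39.7 with control siRNA, Pdgfra 0.777 with Prune2 siRNA and 0.853 with control siRNA, and Dcn 0.270 with Prune2 siRNA and 0.160 with control siRNA. Other genes of that list were high, with Fn1 at 2459 FPKM with Prune2 siRNA and 3305 FPKM with control siRNA and Acta2, the smooth muscle actin of myofibroblasts, at 308 FPKM with Prune2 siRNA and 370 FPKM with control siRNA. Among markers of single tubule segments, Aqp2, a collecting duct water channel, was at 0 in all libraries. Slc12a1, Umod and Cubn had means under 1 FPKM in both groups. Lrp2, Aqp1 and Slc12a3 had means of 2.24, 2.76 and 1.63 FPKM with Prune2 siRNA. Their means with control siRNA were 2.68, 3.64 and 0.6 FPKM. Havcr1, also on the tubular list, was higher, at 83.5 FPKM with Prune2 siRNA and 78.8 FPKM with control siRNA. The RNA thus held high levels of both general epithelial and some mesenchymal transcripts, while other markers on either list were low or at 0. In bulk RNA, fewer cells of a type and less RNA per cell cannot be told apart. Differences below are log2 fold changes of counts, Prune2 siRNA over control siRNA, fitted by edgeR. Their adjusted p-values come from its quasi-likelihood test, corrected over 13248 tested genes by the Benjamini-Hochberg method, and genes under 0.05 are described as called.

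Prune2 itself was lower in every Prune2 siRNA library, and the depletion was partial. It stood at 3.78, 3.19 and 4.44 CPM (counts scaled to library size by the trimmed mean of M values) with Prune2 siRNA, against 6.49, 7.85 and 6.52 CPM with control siRNA (log2 fold change -0.87, SE 0.15, adjusted p = 0.000214). Its size depends on the unit, since the length implied by count and FPKM ran from 3876 to 6029 bases. Its mean FPKM was 0.847 ± 0.0643 with Prune2 siRNA and 1.18 ± 0.132 with control siRNA (SD, n = 3), and the groups again did not overlap. The authors' deposited table gives a log2 fold change of -0.48 and an adjusted p of 0.000249. Limma on FPKM did not call Prune2: the log2 difference was -0.24 on log2(FPKM + 1) (adjusted p = 0.0827, or 0.0872 with no filter) and -0.43 on log2(FPKM + 0.1) (adjusted p = 0.0876). The added constant shrinks log2 differences of low FPKM values, more so at 1 than at 0.1. Why limma did not call Prune2 was not tested.

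Hbegf was the family member with the highest level, and Egfr was the highest receptor. Levels of different genes were compared on the deposited FPKM, which is scaled for length. Hbegf, a heparin-binding growth factor, had 125.06, 118.93 and 121.40 FPKM with Prune2 siRNA, against 133.33, 140.46 and 135.30 FPKM with control siRNA. Averaged over all 6 libraries, its level was above that of 97.5% of the 17041 genes with an FPKM above 0. Egfr had 38.34, 39.68 and 36.85 FPKM with Prune2 siRNA, against 38.88, 38.29 and 37.37 FPKM with control siRNA, and was above 88.3% of those genes. Egfr lies on chromosome 11 of GRCm38, from 16752203 to 16918158 on the plus strand.

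Erbb3 and Erbb2 stood below Egfr and close to each other. Erbb3 had a mean FPKM of 16.8 ± 0.823 with Prune2 siRNA and 14.8 ± 0.747 with control siRNA (SD, n = 3), and Erbb2 had 15.5 ± 1.21 with Prune2 siRNA and 15.2 ± 0.185 with control siRNA (SD, n = 3). The order of their means differed between the groups, and the ranges of these neighbours overlapped in each group. Library by library with Prune2 siRNA, Erbb3 had 15.94, 17.04 and 17.55 FPKM, and Erbb2 had 14.44, 15.18 and 16.81 FPKM. Erbb3 was thus above Erbb2 in each of these libraries. With control siRNA, Erbb3 had 14.29, 14.51 and 15.68 FPKM, and Erbb2 had 15.03, 15.38 and 15.31 FPKM. The order there varied between libraries. Whether the levels of Erbb3 and Erbb2 differed within libraries was not tested. Of the summed FPKM of these 3 receptors, Egfr made up 51.7% to 55.8% per library with Prune2 siRNA and 54.7% to 57.0% with control siRNA. Erbb3 made up 23.2% to 24.6% with Prune2 siRNA and 21.0% to 22.9% with control siRNA, ranges that did not overlap.

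Among the ligands, all others had far lower levels than Hbegf. Tgfa, the transforming growth factor that shares Egfr with EGF, had a mean FPKM of 8.50 ± 0.886 with Prune2 siRNA and 7.66 ± 0.626 with control siRNA (SD, n = 3). Btc (betacellulin) had 1.76 ± 0.383 FPKM with Prune2 siRNA and 1.68 ± 0.0551 with control siRNA. Areg (amphiregulin) had 0.570 ± 0.128 FPKM with Prune2 siRNA and 0.537 ± 0.136 with control siRNA. These 2 ligands thus stood well below Tgfa, and Ereg (epiregulin) lower still, at 0.167 ± 0.0208 FPKM with Prune2 siRNA and 0.233 ± 0.0379 with control siRNA (SD, n = 3 throughout). Epgn (epigen) had 0.00, 0.25 and 0.05 FPKM with Prune2 siRNA, against 0.03, 0.08 and 0.00 with control siRNA. The order of ligands was the same in both groups. Neighbouring ligands did not overlap in either group, except that Ereg and Epgn overlapped with Prune2 siRNA. Hbegf made up 90.7% to 92.4% of the summed ligand FPKM per library with Prune2 siRNA and 92.7% to 93.8% with control siRNA.

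**Figure D1:**
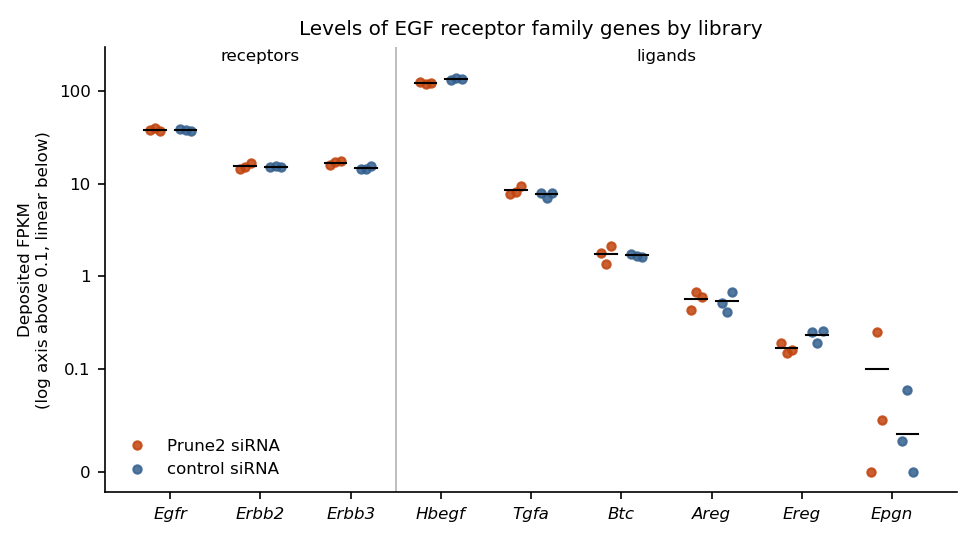
Deposited FPKM of the 3 receptors and 6 ligands (vertical axis, logarithmic above 0.1 and linear below) in each of 3 Prune2 siRNA and 3 control siRNA libraries, where points are libraries and lines are group means. Hbegf stands at 118.93 FPKM or above in every library, and Epgn at 0.25 or below.

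The 4 ligands with the lowest levels are neighbours in the genome. Epgn (91027464 to 91035215), Ereg (91074622 to 91093646) and Areg (91139599 to 91148432) lie on the plus strand of chromosome 5 of GRCm38, with 39.4 kb between Epgn and Ereg and 46.0 kb between Ereg and Areg. Btc (91357261 to 91402994) lies 209 kb beyond Areg on the minus strand. Within this 376 kb stretch the mean FPKM with Prune2 siRNA ran from 0.1 for Epgn to 1.76 for Btc, and with control siRNA from 0.0367 for Epgn to 1.68 for Btc. Tgfa lies on chromosome 6 (86195223 to 86275719, plus strand).

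Promoter windows from RefSeq were read for 6 of the 9 genes: Egfr, Erbb2, Areg, Tgfa, Btc and Epgn. A gene outside these 6 may still have a RefSeq promoter entry. The 250 bases before the gene start are shown for the receptor with the highest level and for a ligand of the low-level chromosome 5 group, from RefSeq on GRCm38.p6, 5′ to 3′ on the strand of the gene. Capitals mark matches, on either strand, to TATAAA (the TATA box), TGACGTCA (the cyclic AMP response element), TGANTCA (the AP-1 site) and GGGCGG (the GC box), and no marked match overlaps another.
Egfr, chr11:16751953-16752202, plus strand: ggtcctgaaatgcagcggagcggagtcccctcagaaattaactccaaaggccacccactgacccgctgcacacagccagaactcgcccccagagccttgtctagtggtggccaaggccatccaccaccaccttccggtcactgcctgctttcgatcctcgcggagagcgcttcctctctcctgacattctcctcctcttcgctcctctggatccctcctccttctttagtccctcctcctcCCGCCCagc
Areg, chr5:91139349-91139598, plus strand: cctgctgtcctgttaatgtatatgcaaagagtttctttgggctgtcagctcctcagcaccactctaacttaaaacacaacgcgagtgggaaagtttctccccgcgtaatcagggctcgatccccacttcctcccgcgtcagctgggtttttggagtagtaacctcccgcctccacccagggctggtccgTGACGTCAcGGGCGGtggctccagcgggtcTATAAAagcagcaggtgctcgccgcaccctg
The Egfr window (60.8% G or C) held a GC box on the complementary strand, beginning 9 bases before the start, and no match to the other motifs. The Areg window (57.2% G or C) held a cyclic AMP response element, a GC box and a TATA box, beginning 61, 52 and 31 bases before the start. The windows of its chromosome 5 neighbours Btc and Epgn, not printed, differed from it. That of Btc held no match to these motifs. That of Epgn held a TATA box match, beginning 86 bases before the start, and no match to the other motifs. Of 32851 windows of the same length, 12.4% held a TATA box, 1.55% the cyclic AMP response element, 6.75% an AP-1 site and 32.7% a GC box. These matches describe the letters of each window and were not set against any binding data.

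With Prune2 siRNA, Erbb3 rose and Hbegf fell by small amounts, and the other tested members were not called. Of the 9 members, 8 passed the low-count filter and Epgn did not. Of these 8, 1 was called higher and 1 lower, where 10.3% of all tested genes were called (4.46% higher and 5.83% lower). CPM of the groups did not overlap for the same 2 members, Erbb3 and Hbegf, where 24.3% of all tested genes did not overlap. The median log2 fold change was 0.03 over the 8 members and 0.00 over all tested genes. With so few genes tested, nothing particular to the family is read from these counts.

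**Figure D2:**
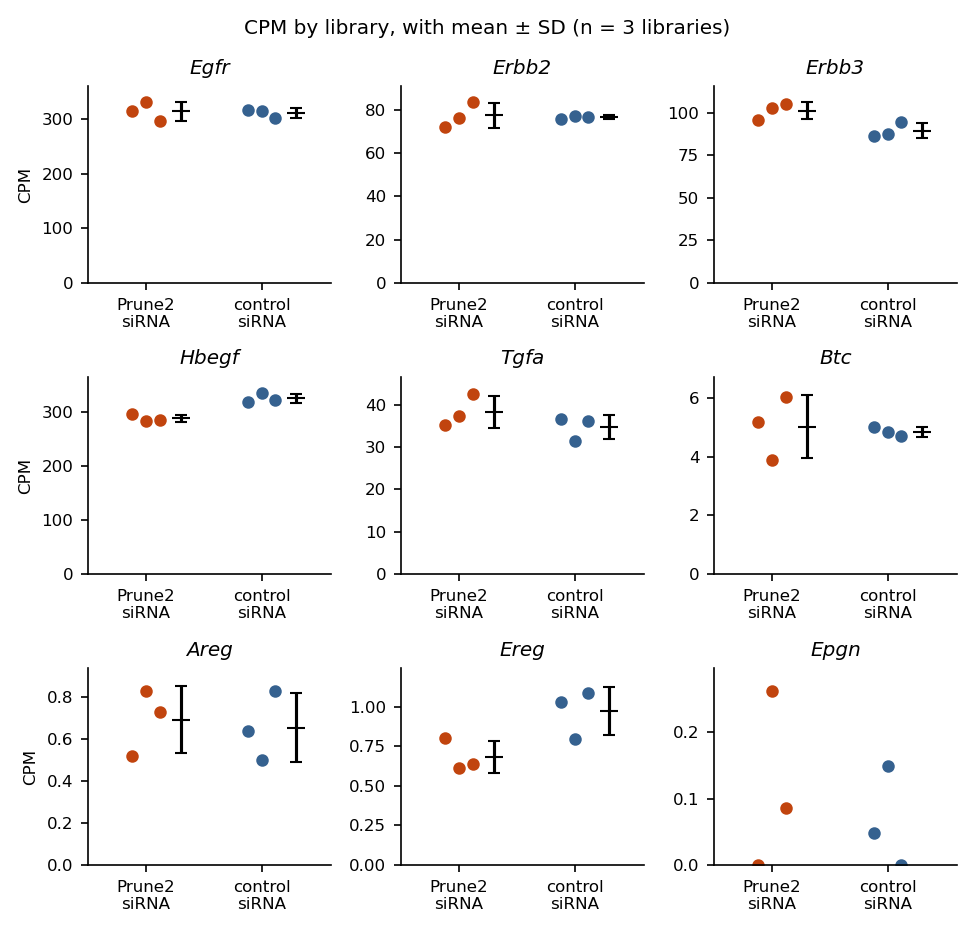
CPM of each of the 9 genes (vertical axes from 0, each gene on its own scale) in 3 Prune2 siRNA and 3 control siRNA libraries, where points are libraries and bars are means ± SD, left out for Epgn because of its counts of 0 to 6. Erbb3 and Hbegf are the genes whose points do not overlap, with the lowest Prune2 siRNA value of Erbb3 at 95.6 CPM against a highest control value of 94.4 CPM.

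Among the receptors only Erbb3 was called. Erbb3 had 95.6, 103 and 105 CPM with Prune2 siRNA, against 86.5, 87.6 and 94.4 CPM with control siRNA. All 3 Prune2 siRNA libraries were above the highest control library, although the gap between the nearest libraries was small. The log2 fold change was 0.17 (SE 0.05, 95% interval 0.08 to 0.27, adjusted p = 0.0117), a rise of 12.9%, and the exact two-sided permutation test gave p = 0.1, the smallest that 3 libraries against 3 allow. The call rested on single libraries: the adjusted p was 0.0973 without Prune2 siRNA replicate 3, 0.0914 without control replicate 1 and 0.0846 without control replicate 2. The authors' deposited table gives Erbb3 a log2 fold change of 0.18 and an adjusted p of 0.0287. On log2(FPKM + 1), limma gave a log2 difference of 0.17 and an adjusted p of 0.184. Erbb3 lies on chromosome 10, from 128567523 to 128589652 on the minus strand.

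Egfr and Erbb2 had fitted differences near 0 with narrow intervals. Egfr had 315, 331 and 296 CPM with Prune2 siRNA, against 317, 315 and 301 CPM with control siRNA. The Prune2 siRNA libraries included both the highest and the lowest value, so the groups overlapped fully. The log2 fold change of Egfr was 0.02 (SE 0.04, 95% interval -0.07 to 0.10, adjusted p = 0.893), so that a fold between 0.955 and 1.07 lies within the interval. Erbb2 had 72.2, 76.2 and 83.6 CPM with Prune2 siRNA, against 75.8, 77.3 and 76.8 CPM with control siRNA. Its Prune2 siRNA libraries were spread more widely than its control libraries and lay on both sides of them (log2 fold change 0.01, SE 0.05, 95% interval -0.09 to 0.12, adjusted p = 0.925). Erbb2 (chromosome 11, 98412470 to 98437716, plus strand) shares 9 exonic bases with Mien1 on the opposite strand. Whether counting used strand is not known, so reads from such overlaps cannot be told apart. Whether the difference of Erbb3 exceeded those of Egfr and Erbb2 was not tested.

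**Figure D3:**
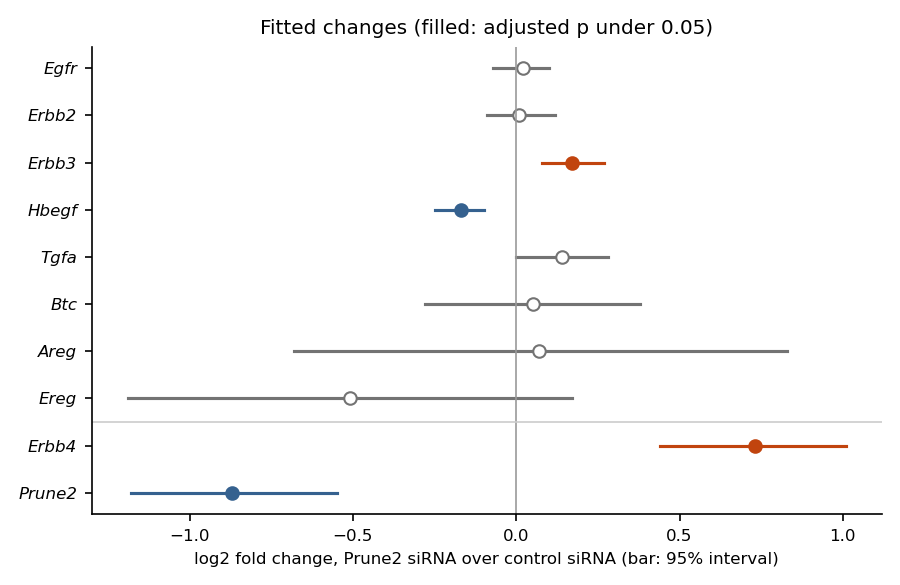
Log2 fold change of counts, Prune2 siRNA over control siRNA (horizontal axis), for the 8 tested members and, below the line, for Erbb4 and Prune2, where bars are 95% intervals and filled points have an adjusted p under 0.05. The intervals of Egfr and Erbb2 span 0 within -0.09 to 0.12, while those of Areg and Ereg are wide.

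Hbegf, the ligand with the highest level, was lower with Prune2 siRNA. It had 296, 283 and 286 CPM with Prune2 siRNA, against 319, 335 and 322 CPM with control siRNA. Every Prune2 siRNA library was below every control library, and the spread within each group was smaller than the distance between them. The log2 fold change was -0.17 (SE 0.04, 95% interval -0.25 to -0.10, adjusted p = 0.00148), a decrease of 11.3%, with an exact permutation p of 0.1. The call held without any single library, with adjusted p of 0.0194 or lower. The authors' deposited table gives Hbegf a log2 fold change of -0.16 and an adjusted p of 7.94e-05. Limma on log2(FPKM + 1) gave a log2 difference of -0.16 and an adjusted p of 0.130, above the threshold. The length implied by count and FPKM was 2375 bases for Hbegf in every library and 6015 to 6017 bases for Erbb3, so for these 2 genes the change of unit itself moved the fold change little. Hbegf lies on chromosome 18, from 36504927 to 36515805 on the minus strand.

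**Figure D4:**
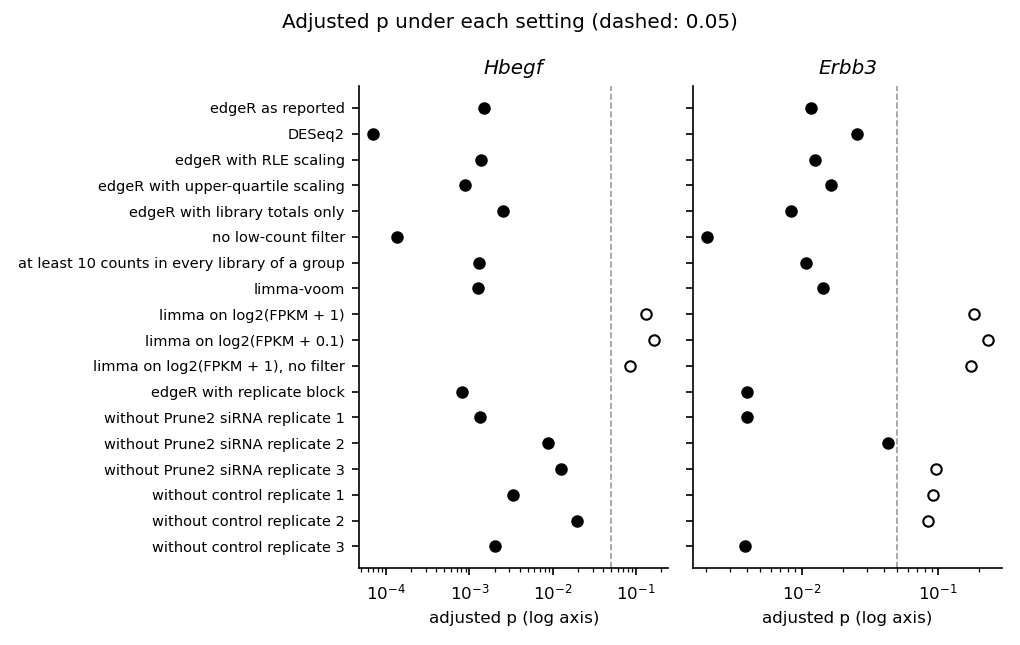
Adjusted p (horizontal axes, logarithmic) of Hbegf and Erbb3 under the reported edgeR fit and 17 alternatives (rows), where filled points are under 0.05 and the dashed line marks 0.05. Hbegf is above the line in the 3 fits on FPKM, and Erbb3 in those and without Prune2 siRNA replicate 3, control replicate 1 or control replicate 2.

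The remaining ligands were not called, and the depth behind them differed widely. Tgfa had 35.2, 37.3 and 42.6 CPM with Prune2 siRNA, against 36.6, 31.5 and 36.3 CPM with control siRNA. Replicates 2 and 3 with Prune2 siRNA were above every control library and replicate 1 was within the control range. Its log2 fold change was 0.14 (SE 0.07, adjusted p = 0.271), with folds from 0.997 to 1.22 inside the 95% interval, so a rise about as large as that of Erbb3 could not be told from none. Btc had 5.19, 3.88 and 6.02 CPM with Prune2 siRNA, against 5.03, 4.85 and 4.69 CPM with control siRNA, and its Prune2 siRNA libraries lay on both sides of the controls (log2 fold change 0.05, SE 0.16, adjusted p = 0.907). Exons of Tgfa share 118 bases with Gm43917 on the opposite strand.

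For the ligands at the bottom of the range, the counts set the limit. Areg, a ligand that binds Egfr with low affinity, had 11, 19 and 17 counts with Prune2 siRNA, against 13, 10 and 19 with control siRNA. These ranges overlapped almost fully (log2 fold change 0.07, SE 0.37, adjusted p = 0.945), and folds from 0.623 to 1.78 lie inside the 95% interval. Ereg, which binds Egfr and Erbb4, had 17, 14 and 15 counts with Prune2 siRNA, against 21, 16 and 25 with control siRNA. Its log2 fold change of -0.51 (SE 0.33, adjusted p = 0.443) was the largest in size among the members, yet the groups overlapped, narrowly, and folds from 0.437 to 1.13 lie inside the interval. Ereg shares 141 exonic bases with the antisense gene Gm19610. Epgn had 0, 6 and 2 counts with Prune2 siRNA, against 1, 3 and 0 with control siRNA. Its summed counts were 8 with Prune2 siRNA (exact 95% Poisson interval 3.45 to 15.8) and 4 with control siRNA (1.09 to 10.2), a depth-scaled ratio of 1.89 (exact interval 0.507 to 8.59). No difference in Epgn was detectable at this depth, and these intervals cover counting error only.

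Beyond the 9 genes, Erbb4 was the family gene that changed most. Erbb4, the other neuregulin receptor, had 10.5, 16.4 and 13.0 CPM with Prune2 siRNA, against 7.86, 6.55 and 9.65 CPM with control siRNA. The groups did not overlap, and the log2 fold change was 0.73 (SE 0.14, adjusted p = 0.000584), a 1.65-fold rise. Its level per length was still the lowest of the receptors, at a mean of 1.26 ± 0.101 FPKM with Prune2 siRNA and 0.673 ± 0.131 FPKM with control siRNA (SD, n = 3). The length implied by count and FPKM ran from 9022 to 11917 bases for Erbb4, so its fold differs by unit, and the authors' deposited table gives a log2 fold change of 0.91. Of the other 5 genes of the family, Nrg1, a neuregulin that binds Erbb3 and Erbb4, averaged 103 CPM with Prune2 siRNA and 95.6 CPM with control siRNA and was not called (log2 fold change 0.11, adjusted p = 0.138). Egf, Nrg2 and Nrg4 were each under 1 CPM on average in both groups and not called, and Nrg3 had 0 counts in all libraries.

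Of 7 tested genes of ligand release, 1 rose and 1 fell (median log2 fold change 0.00), where 10.3% of all tested genes were called. Timp3, a metalloprotease inhibitor that blocks Adam17, rose to a mean of 421 ± 10.1 CPM with Prune2 siRNA, against 361 ± 4.47 CPM with control siRNA (SD, n = 3), a log2 fold change of 0.22 (SE 0.03, adjusted p = 4.86e-05). Its exons share 1733 bases with Syn3 on the opposite strand, for which 171 counts were recorded in all. Adam12, a metalloprotease able to release Hbegf, fell to 813 ± 31.4 CPM with Prune2 siRNA, against 902 ± 25.9 CPM with control siRNA (SD, n = 3; log2 fold change -0.15, adjusted p = 0.00660). Adam17 itself had a log2 fold change of -0.03 (adjusted p = 0.818). Of 20 genes that carry the signal inside the cell, Stat3 alone was called, again beside 10.3% of all tested genes, with a log2 fold change of 0.13 (adjusted p = 0.0300). Its exons share 72 bases with Stat5a. The call was lost without Prune2 siRNA replicate 1 (adjusted p = 0.0750) or 3 (0.170), or control replicate 1 (0.181) or 2 (0.102).

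Among 18 tested genes listed as feedback inhibitors, 4 fell and 0 rose, where 5.83% of all tested genes were called lower and 4.46% higher. The median log2 fold change of the 18 was -0.05. Lrig3, a membrane protein related to the ErbB inhibitor Lrig1, had 108, 112 and 110 CPM with Prune2 siRNA, against 159, 151 and 155 CPM with control siRNA. It fell by 0.49 on the log2 scale (SE 0.04, adjusted p = 7.28e-10), far outside the spread between libraries, whereas Lrig1 had a log2 fold change of 0.04 (adjusted p = 0.713). Dusp6, a phosphatase that inactivates ERK, had 34.9, 34.6 and 37.6 CPM with Prune2 siRNA, against 45.5, 46.5 and 43.5 CPM with control siRNA (log2 fold change -0.34, SE 0.06, adjusted p = 0.000111). Dusp4, a nuclear phosphatase of MAP kinases, fell by 0.18 (adjusted p = 0.00236). Spred3, an inhibitor of RAS to ERK signalling whose exons share 202 bases with Ggn, fell by 0.20 (adjusted p = 0.0250), a call lost without Prune2 siRNA replicate 1 (adjusted p = 0.113) or 3 (0.139), or control replicate 3 (0.111), and with DESeq2 (0.0712). Errfi1, which binds and inhibits Egfr, had a log2 fold change of -0.03 (adjusted p = 0.746).

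Among 16 tested genes listed as ERK targets, 3 rose and 0 fell, where 4.46% of all tested genes were called higher and 5.83% lower. The median log2 fold change was -0.10 over the 16 and 0.00 over all tested genes, and 11 of the 16 had a value below 0. Ccnd1, the D-type cyclin of cell cycle entry, averaged 494 ± 20.1 CPM with Prune2 siRNA and 422 ± 9.67 CPM with control siRNA (SD, n = 3; log2 fold change 0.23, adjusted p = 6.94e-05). Exons of Ccnd1 share 1100 bases with the gene annotated as LTO1 on the opposite strand, for which 2741 counts were recorded in all. Ier3, an early response gene, had a log2 fold change of 0.17 (adjusted p = 0.00366), and Myc, a growth-promoting transcription factor, also 0.17 (adjusted p = 0.0115). Myc lost its call without Prune2 siRNA replicate 3 (adjusted p = 0.0850), control replicate 2 (0.0829) or control replicate 3 (0.101). Fos and Egr1, immediate early genes, had log2 fold changes of 0.28 (adjusted p = 0.405) and -0.20 (adjusted p = 0.0784). Over the 5 lists 11 of 66 tested genes were called, beside 10.3% of all tested genes.

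**Figure D5:**
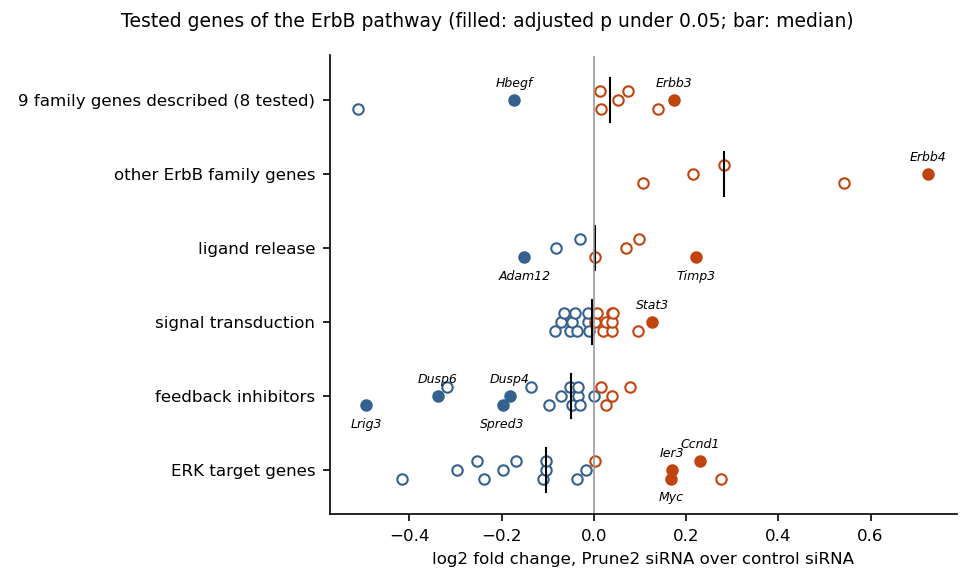
Log2 fold change of counts, Prune2 siRNA over control siRNA (horizontal axis), for tested genes of the family and of the pathway lists (rows), where filled points have an adjusted p under 0.05 and bars are medians. The 4 called genes of the feedback inhibitor list lie to the left, from -0.49 to -0.18, and Erbb4 lies farthest to the right at 0.73.

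Genes with library profiles most like those of the called members were found by the Euclidean distance of centred log2(CPM + 0.01) over the 6 libraries. For Erbb3 they were Cobl, an actin nucleator (distance 0.018, log2 fold change 0.19, adjusted p = 0.0148), Tead3, a transcription factor that partners YAP (0.043, log2 fold change 0.17, adjusted p = 0.0910), and Pkhd1, which encodes the cilium-associated protein fibrocystin (0.051, log2 fold change 0.19, adjusted p = 0.00187). For Hbegf they were Tpgs2 (distance 0.045, log2 fold change -0.15, adjusted p = 0.291), Surf4, a cargo receptor of the early secretory pathway (0.048, log2 fold change -0.15, adjusted p = 0.00344), and Degs1, a ceramide synthesis enzyme (0.052, log2 fold change -0.14, adjusted p = 0.0255). Tead3 and Tpgs2 were not called.

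Markers of other cell types moved in the same libraries, where 4.46% of all tested genes were called higher and 5.83% lower. All 18 leukocyte markers were called lower, and their summed level was 52.0 to 57.6 CPM with Prune2 siRNA and 231 to 289 CPM with control siRNA. Of 17 tested tubular epithelial markers 4 were higher and 3 lower, with summed levels of 8079 to 8750 CPM with Prune2 siRNA and 8608 to 8766 CPM with control siRNA. Slc12a3, Cdh16 and Pax8 were among those that rose, with log2 fold changes of 1.42, 0.28 and 0.22, while Krt8, Lrp2 and Aqp1 fell and Epcam had 0.01. Of 8 endothelial markers 6 were lower, of 11 tested fibroblast markers 6 were lower, and of 15 tested interferon response genes 15 were higher. The summed levels of these lists were 97.0 to 101 CPM with Prune2 siRNA and 131 to 142 CPM with control siRNA for endothelium, 19842 to 21938 CPM with Prune2 siRNA and 27543 to 28173 CPM with control siRNA for fibroblasts (of which Fn1 alone had a mean of 19429 CPM with Prune2 siRNA and 26295 CPM with control siRNA), and 284 to 355 CPM with Prune2 siRNA and 122 to 166 CPM with control siRNA for interferon response genes. The part of these shifts in the values of Erbb3, Hbegf and Erbb4 was not tested.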

How the data were processed

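The authors deposited 1 table of read counts and FPKM values for every gene in each library, per the file headers. Group means of FPKM, log2 fold changes and p-values, raw and adjusted, by the authors stand in the same table. Per the submitters' processing notes GRCm38 and mm10 were named as builds. The aligner, counting tool, strand setting and the test behind the deposited p-values were not given in the sources used here. Groups and replicate numbers came from the sample titles.

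Counts as deposited were tested over all genes with edgeR 4.0.16 in R 4.3.3 (TMM, filterByExpr, glmQLFit, glmQLFTest). CPM uses the TMM-scaled library sizes of that fit. The SE is the log2 fold change divided by the square root of F. Single genes were also compared by exact two-sided permutation in SciPy 1.17.1. DESeq2 1.42.0, limma 3.58.1 on counts and on log2(FPKM + 1) or log2(FPKM + 0.1), other scalings and filters, a replicate block and fits without each library were alternatives. The edgeR procedure was tested on simulated data. Replicate pairs gave a chi-square of 2.57 to 3.92 per degree of freedom, so none was a repeat deposit. Lists other than the members were matched by gene ID to GENCODE M21, in which 22219 of 22274 IDs were found. Promoters came from RefSeq. Named genes are the members, Prune2 and, per list, up to 3 called genes per direction by adjusted p, with more to resolve counts of 5 or fewer. Uncalled list genes, marker genes and genes given for context were named outside this rule after their values were seen. The members and lists were chosen with earlier results of these data known. Some list genes are not reported here by name.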

Additional observations from a re-analysis of the deposited data

How the results depend on the processing

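Of the 2 members called, Hbegf kept its direction and call in 14 of 17 alternatives (adjusted p 7.03e-05 to 0.164) and Erbb3 in 11 (0.00204 to 0.233). Limma on FPKM changes unit and test together and called fewer genes: on log2(FPKM + 1) 589 genes, 0 members and 4 pathway list genes, on log2(FPKM + 0.1) 409, 0 and 3, and on log2(FPKM + 1) with no filter 525, 0 and 5, against 1364, 2 and 11 as reported. At an unadjusted p under 0.05 both Hbegf and Erbb3 passed in those 3 fits (0.0110 and 0.0204, 0.0139 and 0.0277, 0.00439 and 0.0161), and edgeR and DESeq2 called both. Without 1 library the counts ran from 997 to 1249 genes, 1 to 2 members and 8 to 13 pathway list genes. Among uncalled members, signs turned without 1 library, with log2 fold changes from -0.02 to 0.06 for Egfr, -0.05 to 0.06 for Erbb2, -0.10 to 0.21 for Btc and -0.08 to 0.29 for Areg. Deviations of same-numbered libraries from their group means had small correlations across genes (0.031, -0.037 and -0.017). Correlations over all genes cannot exclude sharing in some of them, so whether the numbers mark pairs is not known. With the replicate block 1490 genes, 2 members and 12 pathway list genes were called. Erbb4, Lrig3 and Dusp6 were called in all 17 alternatives. Depth limits Areg, Ereg and Epgn, at 0 to 25 counts a library.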
